A study of Mus musculus with 4 samples.

Results

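The ionotropic glutamate receptor subunits examined here were 10 genes, taken from the 43346 genes of the count tables by their symbols: Gria1, Gria2, Gria3, Gria4, Grin1, Grin2b, Grik1, Grik2, Grik3 and Grik5. Their transcripts were counted by droplet single-cell RNA sequencing in 4 libraries from the forebrain of wild-type mice at E12.5. The cortex (CTX) and the ganglionic eminences (LGE, lateral; MGE, medial; CGE, caudal) each gave 1 library of tissue pooled from embryos, from C57BL/6 mice according to the methods, with no reporter and no treatment. With no replicate of a region, levels are set side by side between regions without a test. The labels describe a sort for live cells, whereas the methods describe cells of wild-type mice as counted and not sorted. This difference was not settled, so the share of cells at each step may reflect a sort.

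Ionotropic glutamate receptors are ion channels built from 4 subunits that open when glutamate binds. Gria1 to Gria4 encode the subunits of AMPA receptors, which carry fast excitatory transmission, and Gria2 is the subunit whose edited transcript makes the channel poorly permeable to calcium. Grin1 encodes the subunit that every NMDA receptor needs, and Grin2b a glutamate-binding partner typical of embryonic neurons. Grik1, Grik2 and Grik3 encode kainate receptor subunits that can form channels by themselves, and Grik5 one that needs such a partner. Immature neurons are known to carry these receptors before they form synapses.

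The genes lie on 10 chromosomes of GRCm38 (GENCODE M21), each matched by its gene ID. Among AMPA receptor genes, Gria1 lies at chr11:57011387-57330244, Gria2 at chr3:80681450-80802835, Gria3 at chrX:41400854-41678601 and Gria4 at chr9:4417896-4796234. Grin1 lies at chr2:25291181-25319187 and Grin2b at chr6:135713233-136173511. Among kainate receptor genes, Grik1 lies at chr16:87895900-88290265, Grik2 at chr10:49094833-49788766, Grik3 at chr4:125490700-125714173 and Grik5 at chr7:25009849-25072346. Reads were counted at the 3′ end of transcripts, so these levels say nothing of splicing, and levels are not compared between genes.

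The promoter stretches of Gria2 and Grik3 are shown because these genes appeared at different steps. Gria2 was counted already in high-Nestin cells, whereas Grik3 was low there and near its highest level in cycling high-Dcx cells of the ganglionic eminences. Each line gives the 250 bases before the gene start, 5′ to 3′ on the strand of the gene, from RefSeq on GRCm38.p6. Capitals in Gria2 mark a match to GGACAGCG read on the other strand, which is a part of the binding site of REST, a repressor of neuronal genes in progenitors, and capitals in Grik3 mark each CG. The Gria2 stretch lies at chr3:80802836-80803085 on the minus strand, the Grik3 stretch at chr4:125490446-125490695 on the plus strand.
Gria2: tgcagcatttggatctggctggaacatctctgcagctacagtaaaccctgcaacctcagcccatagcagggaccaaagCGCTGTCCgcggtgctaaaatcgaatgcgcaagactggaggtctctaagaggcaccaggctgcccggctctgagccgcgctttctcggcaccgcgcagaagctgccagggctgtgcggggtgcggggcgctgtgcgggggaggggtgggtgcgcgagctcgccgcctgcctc
Grik3: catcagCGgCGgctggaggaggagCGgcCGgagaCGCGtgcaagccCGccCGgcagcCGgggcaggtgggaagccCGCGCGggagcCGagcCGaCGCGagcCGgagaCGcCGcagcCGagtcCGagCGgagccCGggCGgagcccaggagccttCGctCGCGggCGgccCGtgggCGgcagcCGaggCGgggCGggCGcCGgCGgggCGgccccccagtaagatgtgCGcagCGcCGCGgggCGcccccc

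RefSeq promoter windows of 300 bases were given for 6 of the 10 genes, namely Gria2, Gria4, Grin1, Grik2, Grik3 and Grik5. GGACAGCG on either strand stood in the window of Gria2 alone among these 6, beginning 172 bases before the gene start, and in 1.26% of all 32851 windows. Neither TCAGCACC, another part of the same site and present in 1.65% of all windows, nor TATAAA, present in 13.6%, stood in any of the 6. The Grik3 window held 50 CG, more than 99.3% of all windows, whose median was 7. These are descriptions of letters in a window and not of binding.

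Cells were placed on 4 steps by the natural log of 1 + UMIs per 10000 (a UMI marks 1 captured transcript). High-Nestin cells, the progenitors, had Nes above 1.5 and Dcx at or below 1.5. High-Dcx cells had Dcx above 1.5, and those with Nes at or below 1.5 were split into cycling cells (Mki67 above 0.5), early cells (Mki67 and Mapt at or below 0.5) and late cells (Mki67 at or below 0.5, Mapt above 0.5). Dcx marks young neurons, Mki67 dividing cells, and Mapt, which encodes tau, maturing neurons. The libraries held 31451467 to 49794765 UMIs, and 3205 to 4755 cells per library were kept. High-Nestin cells numbered 889, 587, 516 and 164 in CTX, LGE, MGE and CGE, and late cells 291, 1019, 1005 and 1811. The steps differed in depth, with a median of 8407 to 9902 UMIs per cell in high-Nestin cells and 5917 to 7412 in early cells. They also differed in the level of 6 radial glia genes, which summed to 3505 to 10720 CPM (UMIs scaled to a total of 1000000) in high-Nestin cells and to 219 to 522 CPM in late cells. The 6 genes of an endothelial list summed to 6.64 to 61.6 CPM in high-Nestin cells and to 0.742 to 3.13 CPM in late cells. Their part in the results was not tested, but the counts of subunits called in the step comparisons were the same, 6, 1 and 6, without cells carrying non-neural genes. Barcodes found in more than 1 library numbered 66, of which 33 were among kept cells, and leaving them out gave the same counts.

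Free RNA was gauged in red blood cell barcodes, which should lack these subunits. They numbered 165, 61, 56 and 20 in CTX, LGE, MGE and CGE, at medians of 10130, 10080, 10880 and 14170 UMIs. A UMI of Gria2 was found in 10.3%, 3.28%, 1.79% and 5.00% of them, against 58.8%, 34.8%, 33.0% and 27.4% of high-Nestin cells, whose median depths were 8457, 8407, 9902 and 9424 UMIs. Per barcode this came to 0.242, 0.0328, 0.304 and 0.05 UMIs of Gria2, against 1.24, 0.538, 0.521 and 0.463 in high-Nestin cells, and all 17 of these UMIs in MGE fell in 1 barcode. Grik3 had no UMI in any red blood cell barcode, which allows up to 3 UMIs per library, and Gria1 had 3, 1, 0 and 0 UMIs. Gria1 in high-Nestin cells, at 2, 3, 1 and 0 UMIs, is read as background.

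Among the AMPA receptor genes, Gria2 was present in progenitors and highest in late cells, whereas Gria1 went from nearly nothing to clear levels in late cells. Gria2 stood at 146, 62.9, 53.8 and 50.5 CPM in high-Nestin cells of CTX, LGE, MGE and CGE. In early cells it stood at 337, 133, 54.9 and 149 CPM, and in late cells at 462, 256, 202 and 382 CPM. Late cells were higher than early cells in 4 of 4 libraries, by 1.12 on the log2 scale (SE 0.229, adjusted p = 0.00555). This and the following step values are edgeR quasi-likelihood tests on 16 sums of cells, 1 for each library and step, with the library as a block and Benjamini-Hochberg adjustment over 12177 genes. The 4 libraries carry the replication, and the block removes their mean differences. The p-values therefore measure how far a step change varied between these libraries, and not between replicates of a region.

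Gria1 stood at 0.264, 0.597, 0.200 and 0 CPM in high-Nestin cells, at 1.89, 4.57, 1.31 and 5.65 CPM in early cells and at 72.3, 66.9, 19.9 and 74.9 CPM in late cells. Late cells of MGE were the lowest of the late cells, with an interval of 16.5 to 23.7 CPM against 60.8 to 73.5 CPM in LGE. The rise from early to late was 4.13 on the log2 scale (SE 0.391, adjusted p = 0.000101, edgeR quasi-likelihood), the largest among the subunits tested, and late cells lay above early cells in every library. These and other intervals on levels are exact 95% Poisson intervals and cover counting error only.

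Gria4 was low in early cells of CTX and LGE, at 1.89 and 3.51 CPM, and higher in early cells of MGE and CGE, at 44.9 and 14.7 CPM. Late cells held 36.7, 31.3, 84.9 and 67.0 CPM in CTX, LGE, MGE and CGE, so that MGE, lowest of the 4 for Gria1, was highest for Gria4. Gria4 rose from early to late cells by 1.99 on the log2 scale (SE 0.448, adjusted p = 0.00879, edgeR quasi-likelihood). These levels pool lineages, which are set apart below. Lhx6 cells held 137 of the 204 late Gria4 UMIs in LGE and 42 of 99 in CTX. For Gria1 they held 163 of 436 and 57 of 195. From early to late, Gria4 went from 1.61 to 3.19 CPM in Ebf1 cells of LGE. It went from 2.105 to 8.98 CPM in Neurod6 cells of CTX and from 43.3 to 82.4 CPM in Lhx6 cells of MGE. The part of the lineage mix in the rise was not tested. Among the late cells of the 4 libraries, all lineages pooled, Gria3 was highest in CTX, at 44.5 CPM against 4.61, 2.88 and 12.52 CPM in LGE, MGE and CGE. High-Nestin cells turned this order around, with 0.791 CPM in CTX and 4.78, 12.4 and 5.31 CPM in the ganglionic eminences. Its change from early to late cells, 1.62 on the log2 scale (SE 0.888), did not pass the test (adjusted p = 0.228).

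Both NMDA receptor genes rose late. Grin2b stood at 0.377, 7.03, 3.72 and 8.47 CPM in early cells of CTX, LGE, MGE and CGE and at 66.4, 41.0, 25.9 and 75.0 CPM in late cells. Its change was 3.45 on the log2 scale (SE 0.616, adjusted p = 0.00263, edgeR quasi-likelihood). Grin1, the subunit shared by all NMDA receptors, was scarce, at 0.351 to 1.69 CPM in early cells and at 8.16, 5.07, 5.77 and 10.8 CPM in late cells. It rose by 2.75 on the log2 scale (SE 0.460, adjusted p = 0.00185). Grin1 shares exon bases with the antisense gene Grin1os and Grin2b with Gm26653, and the strand setting of the counting is not given in the sources used here. These antisense genes were listed with 0 and 4 UMIs over all step sums.

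Kainate receptor genes behaved differently from each other. Grik3 was absent or low in high-Nestin cells, at 0, 7.77, 5.00 and 1.33 CPM in CTX, LGE, MGE and CGE. In cycling cells it had already reached 80.6, 70.1 and 51.3 CPM in LGE, MGE and CGE, in early cells it held 86.4, 70.7 and 63.3 CPM and in late cells 54.97, 66.8 and 67.9 CPM. In CTX it had no UMI in high-Nestin, cycling or early cells, where 3 counts would give 0.395, 2.29 and 1.13 CPM, and stood at 19.3 CPM in late cells. Cycling cells exceeded high-Nestin cells by 3.79 on the log2 scale (SE 0.653, adjusted p = 0.000428, edgeR quasi-likelihood), a value set by the 3 eminences. Late cells differed from early cells by 0.28 in the same test (SE 0.505, adjusted p = 0.759), a mean over unlike libraries. The ratio of late to early cells was 0.636 (0.539 to 0.751) in LGE, 0.945 (0.815 to 1.10) in MGE and 1.07 (0.880 to 1.32) in CGE. In CTX Grik3 went from 0 to 52 UMIs.

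Grik5 was counted at every step and in every region. It stood at 41.0, 43.6, 34.8 and 47.8 CPM in high-Nestin cells of CTX, LGE, MGE and CGE and at 80.5, 79.8, 78.2 and 96.8 CPM in late cells, so that the late cells of the 4 regions lay closer together than those of Gria1. From early to late cells it rose by 0.49 on the log2 scale (SE 0.0825, adjusted p = 0.00202, edgeR quasi-likelihood). Grik2 was highest in CTX, at 28.7 CPM in high-Nestin cells and 29.3 CPM in late cells, against 6.003 to 15.7 CPM and 16.9 to 24.7 CPM in the eminences. It changed by 0.29 from early to late cells (SE 0.367, adjusted p = 0.641). Grik2 spans genes that lie within it on the same strand, of which Gm26543 had 122 UMIs. Grik1 had 12, 33, 4 and 42 UMIs in late cells of CTX, LGE, MGE and CGE, at 4.45, 5.07, 0.641 and 3.46 CPM, and was too low to be tested between steps.

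**Figure D1:**
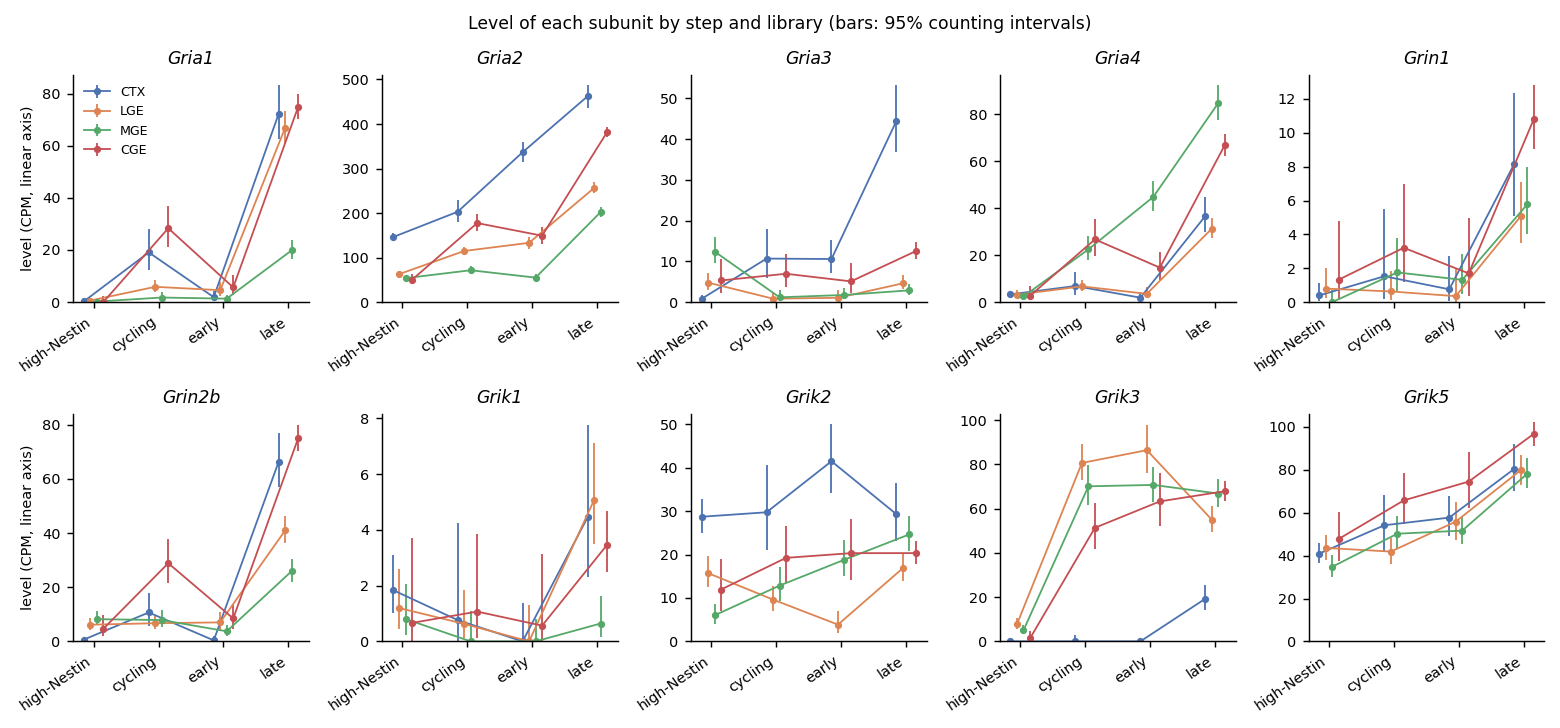
Level of each of the 10 subunits in CPM in high-Nestin, cycling, early and late cells, with 1 line for each library and bars for 95% counting intervals. Gria1, Grin2b and Grin1 climb between early and late cells, Grik3 is already high in cycling cells of LGE, MGE and CGE, and Grik5 is present at every step.

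Of the 9 subunits tested, 6 were higher in late than in early cells and none was lower, with a median change of 1.62 on the log2 scale against -0.01 over all genes tested. Over all genes, 10.1% were called higher and 8.57% lower in that comparison, where a call needed an adjusted p under 0.05 and a change of 0.25 on the log2 scale. Between high-Nestin and cycling cells, 6 of 9 were higher and none was lower, with a median of 1.28 against 0.02, while 24.3% of all genes were called higher and 22.0% lower. These 6 were Gria1, Grik3, Gria4, Grin1, Gria2 and Grik5, at 5.03, 3.79, 2.15, 1.66, 0.93 and 0.42 on the log2 scale. Between cycling and early cells only Gria1 was called, lower by -1.77 (SE 0.453, adjusted p = 0.0228, edgeR quasi-likelihood), where 2.88% of all genes were called higher and 7.86% lower. That call was lost without CTX, without MGE or without CGE, where the lower count was 0.

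Cycling cells were mixed in Mapt, and Gria1 and Grin2b followed it. Cycling cells with Mapt above 0.5 numbered 40, 141, 114 and 104 in CTX, LGE, MGE and CGE, and those without numbered 105, 408, 290 and 97. Gria1 had exactly 1 UMI among the cycling cells without Mapt in each of the 4 libraries, against 24, 27, 5 and 52 UMIs in those with Mapt. Their Gria1 levels were 1.08, 0.277, 0.392 and 1.06 CPM without Mapt and 63.0, 23.2, 5.72 and 56.1 CPM with Mapt. Grin2b likewise stood at 0, 3.87, 2.74 and 1.06 CPM without and at 36.7, 15.5, 22.9 and 57.2 CPM with Mapt. Grik3 did not follow Mapt, at 76.4, 65.5 and 51.9 CPM without and 93.8, 83.5 and 50.8 CPM with it in LGE, MGE and CGE, and with overlapping intervals in each. The median depth of cycling cells with Mapt was 9926, 7903, 6836 and 8322 UMIs in CTX, LGE, MGE and CGE. Without Mapt it was 8301, 8662, 8236 and 9959 UMIs, so cells with Mapt were deeper in CTX only. Predicted doublets and barcodes above the upper gene limit had already been removed. These depths therefore cannot tell whether a droplet held more than 1 cell, which was not tested. The Mapt split of cycling cells was chosen after seeing the data.

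With cycling cells limited to those without Mapt, Grik3 was the only subunit of the 9 that was higher than in high-Nestin cells, by 3.73 on the log2 scale (SE 0.654, adjusted p = 0.000612, edgeR quasi-likelihood). Gria1 was then at 0.75 (SE 0.776, adjusted p = 0.491) and Gria4 at 1.40 (SE 0.669, adjusted p = 0.112). Early cells then exceeded cycling cells in Gria1 by 2.47 (SE 0.552, adjusted p = 0.00692), so the direction of that step turned with the limit, and in Grik5 by 0.45 (SE 0.102, adjusted p = 0.00755). The gates of the study exclude Mapt and Rbfox3 from mitotic cells, set no upper limit on Dcx in high-Nestin cells and use the eminences only. Under them Grik3 was again higher in mitotic high-Dcx than in high-Nestin cells, by 3.05, as was Gria4, by 1.20, while Gria3 was lower, by -2.74. Over all 18 alternative analyses of that step, Grik3 stayed higher in 18, with changes of 3.05 to 4.41 and adjusted p-values up to 0.0243.

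**Figure D2:**
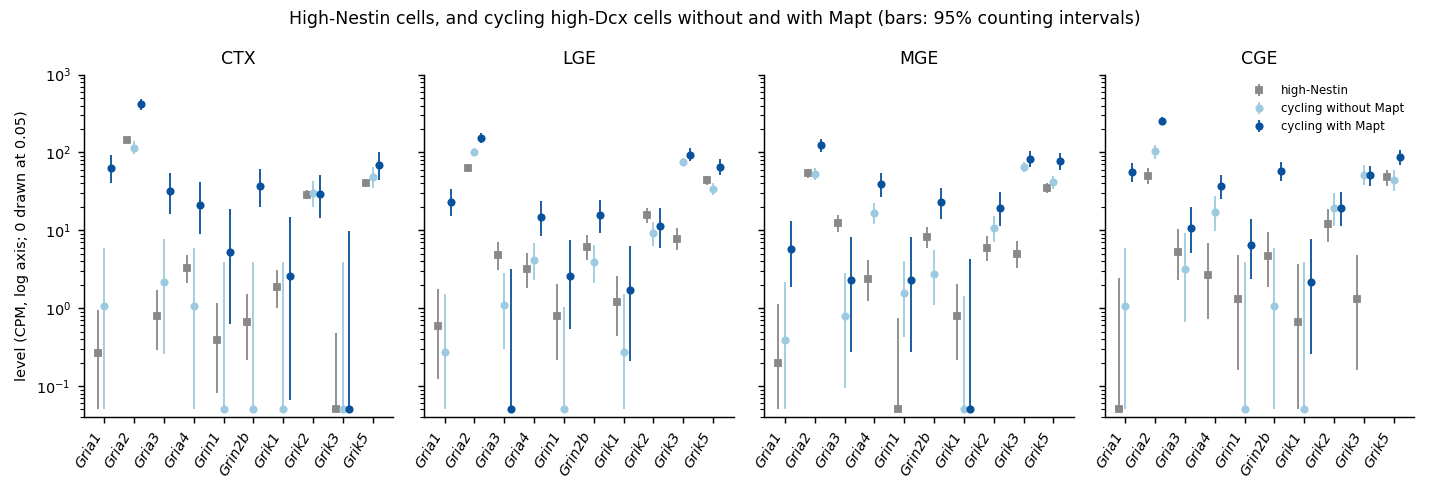
Level in CPM on a log axis, with 0 drawn at 0.05, of the subunits in high-Nestin cells and in cycling high-Dcx cells without and with Mapt, 1 panel for each library, bars for 95% counting intervals. Grik3 is at its level of 51.9 to 76.4 CPM without Mapt in the 3 eminences, whereas Gria1 is at 0.277 to 1.08 CPM there and at 5.72 to 63.0 CPM with Mapt.

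The order of appearance was read for each gene against its own highest step, as the earliest step with 50% or more of that level. Of 40 pairs of a gene and a library, 7 reached it in high-Nestin cells, 7 in cycling cells, 3 in early cells and 22 in late cells, and 1 (Grik1 in MGE, 8 UMIs) was too low to place. Gria1, Grin1 and Grin2b reached it in late cells in all 4 libraries. Early cells then held 2.61%, 6.82%, 6.61% and 7.54% of the late level of Gria1 in CTX, LGE, MGE and CGE. Grik3 reached 50% in cycling cells of LGE, MGE and CGE, at 93.3%, 99.1% and 75.7% of its highest step, but in late cells of CTX. Gria2 reached it in early cells of CTX and LGE, at 72.8% and 52.0%, and in late cells of MGE and CGE, where early cells held 27.2% and 39.1%. Gria4 reached it in early cells of MGE alone, at 52.9%, against 5.14%, 11.2% and 21.9% in CTX, LGE and CGE.

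Grik2 and Grik5 had no late onset in any library. Grik2 was at 69.2%, 93.1% and 58.8% of its highest step in high-Nestin cells of CTX, LGE and CGE, and at 24.3% in MGE, where it reached 52.1% in cycling cells. Grik5 stood at 50.9%, 54.6%, 44.6% and 49.4% in high-Nestin cells, close to the limit in each library, so its placing in high-Nestin or cycling cells carries little. Gria3 was highest in high-Nestin cells of LGE and MGE, where late cells held 96.4% and 23.2% of that level, and rested on 61 and 92 UMIs. The placing is a description with no test, and it depends on the limit. At 25% of the highest step, 23 of the 40 pairs had the same onset and 17 an earlier one. Gria1 then moved to cycling cells in CTX and CGE, Grin1 to cycling cells in MGE and CGE, and Grin2b to high-Nestin cells in MGE and cycling cells in CGE. With cycling cells with Mapt left out, 37 of the 40 pairs had the same onset and 3 a later one.

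**Figure D3:**
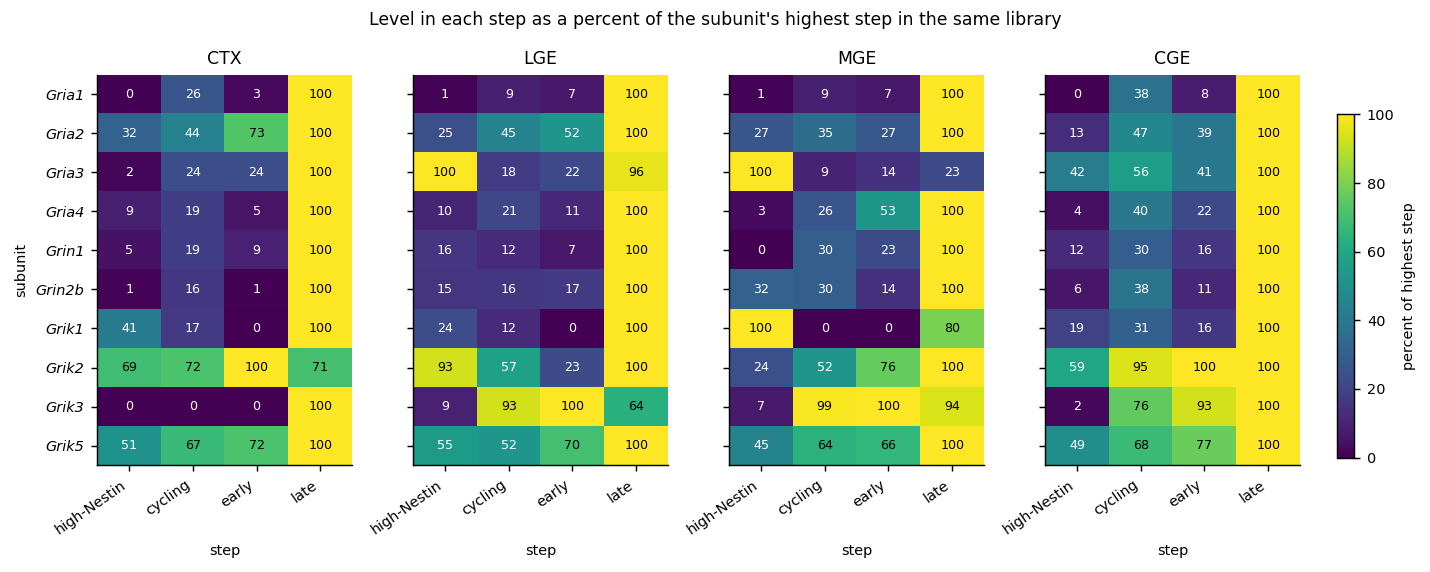
Level of each subunit in each step as a percent of its own highest step, 1 panel for each library, with 50% as the limit for appearance. Grik3 passes it in cycling cells of LGE, MGE and CGE and Grik2 and Grik5 in high-Nestin or cycling cells, while Gria1, Grin1 and Grin2b pass it in late cells of all 4 libraries.

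Lineages among high-Dcx cells were taken from a UMI of exactly 1 of Lhx6 (interneurons of MGE origin), Ebf1 (striatal projection neurons), Nr2f2 (many cells of CGE origin) and Neurod6 (cortical excitatory neurons). Cells with none or several of these genes were left out. High-Dcx cells of CTX, LGE, MGE and CGE held 3903, 5910, 5202 and 11271 subunit UMIs. Of these, cells with none of the genes held 110, 3188, 550 and 1267, and cells with several held 253, 184, 1236 and 3306. The labels were checked on late cells with lists that include the lineage gene itself. The 9 genes of the MGE interneuron list summed to 2252 to 5925 CPM in late Lhx6 cells of the 4 libraries and to 31.2 to 87.3 CPM in late Ebf1 cells. Late Ebf1 cells held 5429 to 5936 CPM of striatal genes, and late Neurod6 cells of CTX held 3517 CPM of cortical excitatory genes and 1.71 CPM of GABAergic genes. Late Nr2f2 cells held 3003 CPM (CGE) and 2348 CPM (MGE) of CGE lineage genes, but also 807 and 1564 CPM of MGE interneuron genes, so the Nr2f2 label marked a mixed set, in MGE above all.

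Against the mean of the other lineages, Lhx6 cells differed in 3 subunits, with more Gria4 and Grik3 and less Gria3, though not against each lineage. In high-Dcx cells Gria4 stood at 258, 141, 52.9 and 172 CPM in Lhx6 cells of CTX, LGE, MGE and CGE. Other lineages held 3.32, 37.5 and 17.9 CPM (Ebf1 cells of LGE, MGE and CGE), 53.4 and 29.3 CPM (Nr2f2 cells of MGE and CGE) and 4.99 CPM (Neurod6 cells of CTX). Gria4 was thus higher in Lhx6 cells within CTX, LGE and CGE, and at the level of Nr2f2 cells within MGE. The difference from the mean of the other lineages was 3.56 on the log2 scale (SE 0.632, adjusted p = 0.0238) in an edgeR quasi-likelihood test on 10 sums with the library as a block and 10650 genes.

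Grik3 stood at 54.9, 60.6, 74.8 and 50.2 CPM in Lhx6 cells of CTX, LGE, MGE and CGE. Nr2f2 cells of MGE and CGE stood at 73.6 and 75.3 CPM, with ratios of Lhx6 to Nr2f2 cells of 1.02 (0.739 to 1.44) in MGE and 0.667 (0.497 to 0.879) in CGE, and Ebf1 cells at 29.6, 12.49 and 26.1 CPM in LGE, MGE and CGE. Lhx6 cells were higher in Grik3 than the mean of the other lineages by 1.35 (SE 0.277, adjusted p = 0.0432, edgeR quasi-likelihood). Gria3 was at 0, 0, 1.80 and 2.74 CPM in Lhx6 cells, against 26.6 CPM in Neurod6 cells of CTX and 6.90, 8.33 and 44.0 CPM in Ebf1 cells of LGE, MGE and CGE. It was lower in Lhx6 cells than the mean of the others by -4.55 (SE 0.953, adjusted p = 0.0475). Against Nr2f2 cells the ratio was 0.977 (0.152 to 41.0) in MGE and 0.282 (0.0569 to 0.853) in CGE.

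All 10 subunits could be tested between lineages, and 2 were higher and 1 lower in Lhx6 cells, with a median of 0.37 on the log2 scale against -0.05 over all genes. In that comparison 1.83% of all genes were called higher and 1.17% lower. None was called in Ebf1 cells (0.667% of all genes higher, 0.545% lower), in Neurod6 cells (0.0752% higher, 0.244% lower) or in Nr2f2 cells (0.197% higher, 0.00939% lower) by edgeR, and at an unadjusted p under 0.05 there were 1, 2 and 1. DESeq2 gave the same counts of calls, 2 higher and 1 lower in Lhx6 cells and 0 in the other lineages. The contrasts had 3 residual degrees of freedom, and that for Neurod6 rests on CTX alone, where the only other lineage with enough cells was 33 Lhx6 cells. All 3 calls in Lhx6 cells were lost without CTX and without CGE. Lineages also differed in maturation: 78.8%, 89.0%, 41.3% and 87.3% of Lhx6 cells of CTX, LGE, MGE and CGE were late cells, against 69.96% to 93.4% of Ebf1 cells and 33.1% of Neurod6 cells. Nr2f2 cells had 25 early and 48 late cells in MGE, and 171 early and 902 late cells in CGE. The part of maturation in the difference was not tested.

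Levels in late cells of each lineage are given without a test. Late Neurod6 cells of CTX (229 cells) held Gria2 at 484 CPM, Gria3 at 50.5 CPM and Grin2b at 70.2 CPM. Gria1 stood there at 25.7 CPM, Gria4 at 8.98 CPM and Grik3 at 16.3 CPM, and Grik1 had no UMI. Early Neurod6 cells (322 cells) already had Gria2 at 343 CPM, while Grin2b was at 0.421 CPM and Grik3 had no UMI. The ratio of late to early cells was 1.41 for Gria2, with an interval of 1.29 to 1.54, and 167 for Grin2b, with an interval of 29.5 to 6623 from 1 early UMI.

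Late Ebf1 cells were low in Gria1 and Gria4 in LGE, at 10.3 and 3.19 CPM (389 cells), and higher in MGE, at 51.5 and 42.2 CPM (60 cells). Their Grin2b stood at 51.0, 63.3 and 185 CPM in LGE, MGE and CGE, the last with an interval of 152 to 224 CPM and the highest of any lineage and library. Mapt in the same cells was 579 CPM in LGE and 1124 and 1123 CPM in MGE and CGE, so the LGE cells had the least of this gene of maturing neurons. Late Ebf1 cells with Mapt above 2.0 (131, 45 and 53 cells) had Mapt at 992, 1376 and 1350 CPM. There Gria1 stood at 13.7, 63.6 and 52.6 CPM, Gria4 at 3.65, 38.1 and 20.6 CPM and Grin2b at 85.0, 82.6 and 220 CPM. This limit was chosen after seeing the data, and the part of Mapt in these differences was not tested. In LGE, Gria2 stood at 250 CPM in early and 238 CPM in late Ebf1 cells, a ratio of 0.954 with an interval of 0.8002 to 1.14. Grik3 was lower in late than in early Ebf1 cells of LGE, at 23.4 against 40.2 CPM, with a ratio of 0.581 and an interval of 0.362 to 0.961. Late Nr2f2 cells of CGE (902 cells) held Gria2 at 369 CPM, Grik3 at 81.9 CPM and Gria1 at 56.3 CPM, against 117, 64.8 and 3.32 CPM in early ones.

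**Figure D4:**
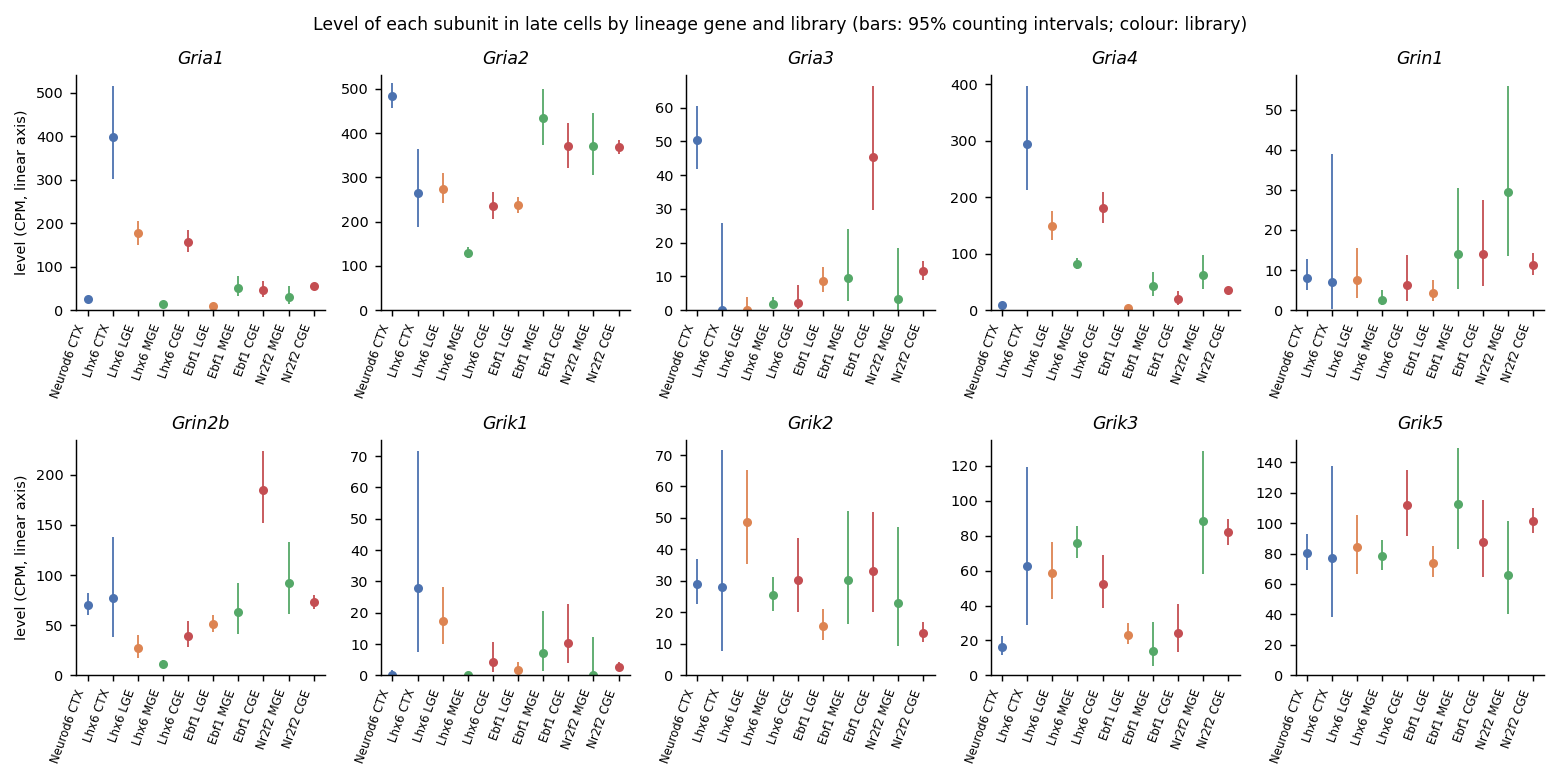
Level in CPM of the subunits in late cells of each lineage and library with at least 20 cells, with bars for 95% counting intervals. Gria1 and Gria4 are highest in Lhx6 cells of CTX, LGE and CGE, Gria3 in Neurod6 cells of CTX and Ebf1 cells of CGE, and Grin2b in Ebf1 cells of CGE.

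Late Lhx6 cells, which lack the other lineage genes, carried very different amounts of Gria1 by region. In CTX, LGE, MGE and CGE they held 177, 778, 1446 and 785 subunit UMIs. All late cells with a UMI of Lhx6 held 253, 816, 2194 and 3094, so the regions were compared on unlike parts of these cells. The late Lhx6 cells without the other genes numbered 26, 153, 561 and 144 in CTX, LGE, MGE and CGE. Gria1 stood at 399, 176, 14.6 and 158 CPM in them, with intervals of 302 to 516, 150 to 206, 10.8 to 19.3 and 134 to 185. The MGE value lay apart from the other 3, which were 27.3, 12.1 and 10.8 times as high. At 3000 UMIs per cell, a UMI of Gria1 was found in 70.8%, 32.7%, 3.27% and 28.9% of these cells, and at full depth in 88.5%, 47.7%, 6.77% and 45.1%, with medians of 5794, 6092, 6041 and 6648 UMIs. Red blood cell barcodes had a UMI of Gria1 in 1.21%, 1.64%, 0% and 0%. Gria2 and Gria4 differed less, at 266, 274, 130 and 235 CPM and at 294, 148, 82.4 and 181 CPM. Grik3 was highest and not lowest in MGE, at 62.9, 58.5, 76.0 and 52.2 CPM with overlapping intervals. Its ratio to the MGE cells was 0.6875 (0.497 to 0.9335) in CGE, 0.769 (0.563 to 1.035) in LGE and 0.828 (0.375 to 1.60) in CTX.

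Mapt differed among the same cells, at 1504, 903, 416 and 879 CPM, with MGE lowest. Late Lhx6 cells were therefore split by Mapt into bands of up to 1.5, from 1.5 to 2.0 and above 2.0 on the log scale of the gates, a split chosen after seeing the data. In the highest band, with Mapt at 1164, 1041 and 1263 CPM in LGE, MGE and CGE, Gria1 stood at 202, 58.3 and 193 CPM and the MGE interval of 40.6 to 81.0 CPM lay below the other 2. Gria2 in that band stood at 328, 366 and 304 CPM, with MGE no longer lowest and with overlapping intervals. CTX had enough cells in this band only, with Gria1 at 425 CPM in 23 cells. In the lowest band, with Mapt at 243, 198 and 212 CPM, Gria1 stood at 113, 3.02 and 97.1 CPM, and in the middle band at 137, 10.8 and 121 CPM. Gria1 was thus lowest in MGE within each band, with intervals apart from those of LGE and CGE. Gria2 stood at 130, 59.4 and 75.0 CPM in the lowest band. There the MGE interval of 49.2 to 71.2 CPM lay below that of LGE (72.9 to 214.7 CPM) and overlapped that of CGE (43.7 to 120.1 CPM). In the middle band Gria2 stood at 195, 127 and 218 CPM. The MGE interval of 103.8 to 153.4 CPM overlapped those of LGE (139.5 to 265.9 CPM) and, narrowly, CGE (152.6 to 301.6 CPM).

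Lhx8, a gene needed for cholinergic neurons of MGE origin, had a UMI in 242 of the 561 late Lhx6 cells of MGE. Gria1 stood at 4.52 CPM in these and at 22.9 CPM in those without Lhx8, a ratio of 5.07 with an interval of 2.26 to 13.4 on 7 and 43 UMIs. In LGE, 30 late Lhx6 cells had Lhx8, with Gria1 at 44.8 CPM, against 208 CPM in the 123 without it. Gria2 did not share this pattern, at 128 and 131 CPM in MGE with and without Lhx8. Cells without Lhx8 in MGE were still below those without it in LGE and CGE, at 208 and 167 CPM of Gria1. This split too was chosen after seeing the data.

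**Figure D5:**
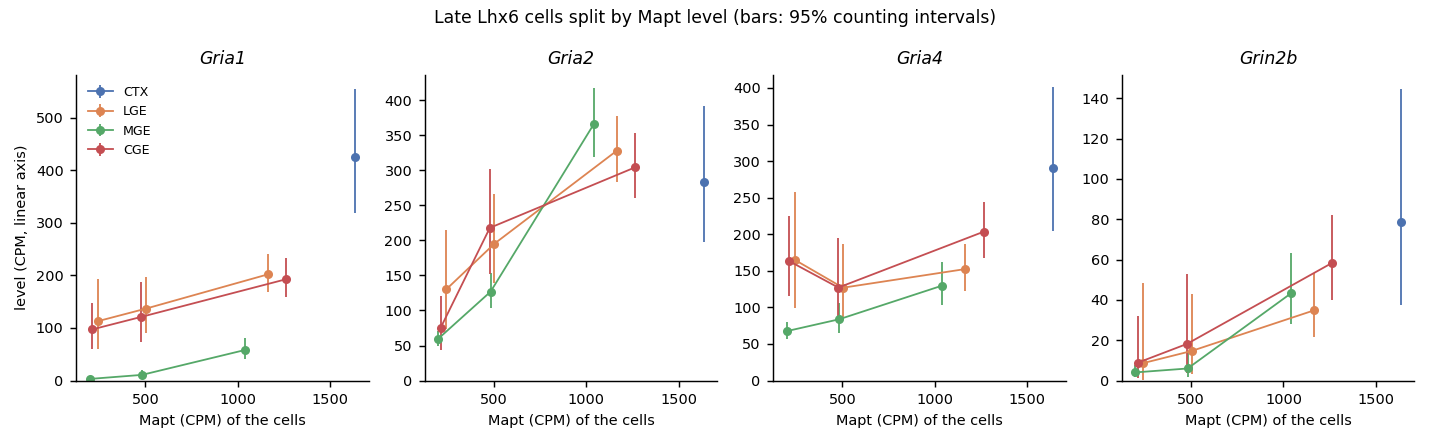
Level in CPM on a linear axis of subunits in late Lhx6 cells of each library, split by the level of Mapt, with bars for 95% counting intervals. Gria1 in MGE lies below LGE and CGE in all 3 bands (58.3 against 202 and 193 CPM in the highest), whereas Gria2 meets the others in the highest band.

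Cells with more than 1 subunit were few among progenitors and common among late cells. With every cell thinned to 3000 UMIs, the mean number of different subunits with a UMI was 0.541, 0.450, 0.331 and 0.315 per high-Nestin cell of CTX, LGE, MGE and CGE. In late cells it was 1.60, 1.26, 1.10 and 1.62. A UMI of 2 or more subunits was found in 8.25%, 6.68%, 3.51% and 5.56% of high-Nestin cells and in 46.7%, 35.5%, 31.2% and 48.9% of late cells. No subunit at all was found in 15.1%, 25.6%, 31.2% and 17.1% of late cells, which at this depth does not show that they lacked the transcripts. Among cells with exactly 1 subunit, that subunit was Grik3 in 32.2%, 35.1% and 16.1% of cycling cells of LGE, MGE and CGE, and in 0 of 50 such cells of CTX. In CTX it was Gria2 in 35 of 50 cycling and 76 of 109 late cells with 1 subunit. Among high-Dcx cells with Gria1, all steps and lineages pooled, Gria4 was also found in 35.7%, 25%, 29.1% and 24.9%, against 2.44%, 3.27%, 14.3% and 12.7% of cells without Gria1. This was not particular to Gria4. Grin2b was found in 21.4%, 14.5%, 7.27% and 28.1% of cells with Gria1, against 4.88%, 4.57%, 3.11% and 13.5% without it. Grik3 went the other way in LGE (15.8% against 17.9%) and MGE (10.9% against 18.6%). The part of maturation and lineage in these shares was not tested. Gria4 was found in 15.0%, 2.45%, 13.2% and 14.8% of cells with Grik3 in CTX, LGE, MGE and CGE and in 4.52%, 5.39%, 15.0% and 14.1% of cells without it. The CTX share with Grik3 rests on 20 cells.

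By family, the mix of UMIs differed between early and late cells. AMPA receptor genes made up 74.8%, 63.9%, 60.5% and 66.2% of the subunit UMIs in late cells of CTX, LGE, MGE and CGE, and kainate receptor genes 16.2%, 27.9%, 33.3% and 23.3%. In early cells AMPA receptor genes made up 77.8%, 48.1%, 41.3% and 50.8%, so their share was lower in late than in early cells of CTX and higher in the eminences. Kainate receptor genes made up 22.0%, 49.4%, 56.7% and 46.2% in early cells, more than in late cells in every library. Their summed level was nonetheless not lower in late cells, at 99.2, 146, 141 and 159 CPM in early and 133, 157, 170 and 188 CPM in late cells, while AMPA receptor genes summed to 351, 142, 103 and 174 CPM in early and 616, 359, 310 and 536 CPM in late cells. NMDA receptor genes made up 0.251%, 2.49%, 2.02% and 2.96% in early cells and 9.05%, 8.20%, 6.20% and 10.6% in late cells. These shares rest on 3′ end counts, which also depend on how well the end of each gene is annotated, so they compare steps and not the amounts of receptor.

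Some of the genes that act with these receptors were called in the same comparison. Of 9 AMPA receptor auxiliary subunits tested from a list of 14, 4 were higher in late than in early cells and none was lower, with a median of 1.63 on the log2 scale against -0.01 over all genes and the background of calls given above. Cacng2, which encodes stargazin, stood at 2.64, 10.5, 18.2 and 27.1 CPM in early and at 24.8, 49.9, 54.0 and 101 CPM in late cells of CTX, LGE, MGE and CGE (2.03, SE 0.249, adjusted p = 0.000507, edgeR quasi-likelihood). Cnih2, an AMPA receptor auxiliary subunit that also helps its export, was already plentiful in early cells, at 162, 160, 114 and 121 CPM, and rose by 1.63 (SE 0.212). Shisa7 rose by 2.16 (SE 0.506), from 0.565 to 7.55 CPM in early cells to 14.5 to 25.5 CPM in late cells. Neto2, an auxiliary subunit of kainate receptors, rose by 1.03 (SE 0.310) and was called, which was 1 of the 2 tested.

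Of 7 scaffold and trafficking genes tested, 4 were higher in late cells and none lower, with a median of 0.395 on the log2 scale. Over all genes the median was -0.01, with 10.1% called higher and 8.57% lower, which is the background for each count in this paragraph. The largest changes among the scaffold genes called were Dlg2 (PSD-93) at 2.81 (SE 0.510), Dlg4 (PSD-95) at 0.86 (SE 0.169) and Grip1 at 0.47 (SE 0.151). Among 4 further ionotropic family genes tested, 2 rose, Grid1 by 2.82 (SE 0.457) and Grin3a by 1.90 (SE 0.583). Of 2 metabotropic receptors tested, 1 rose, Grm5, by 3.02 (SE 0.595), from 0.657 to 1.69 CPM in early to 2.40 to 17.4 CPM in late cells. Of 3 genes listed as editing enzymes, 1 rose, Adarb2, by 1.59 (SE 0.272), which binds RNA but is not known to edit it, and it had no UMI in early and late cells of CTX. GABA-A receptor subunits, the other main class of channels of young neurons, were higher in 5 of 7 tested, with Gabra5 at 4.85 (SE 1.01), Gabra3 at 2.15 (SE 0.338) and Gabra2 at 1.93 (SE 0.483).

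Rest, whose product represses neuronal genes in progenitors, stood at 83.3, 43.8, 37.8 and 67.1 CPM in high-Nestin cells of CTX, LGE, MGE and CGE and at 6.87, 4.398, 13.7 and 10.2 CPM in cycling cells. It was lower in cycling than in high-Nestin cells by -2.57 on the log2 scale (SE 0.328, adjusted p = 4.19e-05, edgeR quasi-likelihood). From early to late cells it was higher by 1.37 (SE 0.390, adjusted p = 0.0264). Of the 3 genes of its list, 1 was higher and 1 lower between high-Nestin and cycling cells, and 1 was higher between early and late cells. Over all genes, 24.3% were called higher and 22.0% lower in the first comparison, and 10.1% higher and 8.57% lower in the second.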

How the data were processed

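The authors deposited unnormalized UMI counts for each gene and barcode of 4 libraries. Cell Ranger was used, with version 3.0.2 in the matrix header and 3.0.0 in the submitters' processing notes, on mm10 (GRCm38) with default parameters. The annotation release, the strand setting and the kit version of each library are not given in the sources used here. Barcodes with more than 1500 and fewer than 4500 genes, under 5% mitochondrial UMIs and under 1% Hbb UMIs were kept, and predicted doublets (122 to 275 per library, called by simulated cell pairs at 0.8% per 1000 barcodes) were removed. UMIs were summed over the cells of a library and step, or library and lineage, where there were at least 20 cells, and turned into CPM.

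Sums were tested with edgeR 4.0.16 in R 4.3.3 (quasi-likelihood, TMM, filterByExpr, library as a block), and DESeq2 1.42.0 was an alternative. The limits for Nes, Dcx and Mki67 follow the study, and that of 0.5 on Mapt was chosen here. The scripts were tested on simulated data. Shares of cells have exact Clopper-Pearson 95% intervals and CPM exact Poisson ones. Named genes were the 10 subunits, up to 3 genes called from each list with the largest change from early to late cells, and Rest. The subunits and the lists were chosen with earlier results of these data known. Regions were not tested against each other.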

Additional observations from a re-analysis of the deposited data

Results flagged for a closer look

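Several subunits moved in opposite directions in different libraries at the same step, with 95% counting intervals on opposite sides of 1. Each library is 1 sample, so these differences between regions were not tested, and the intervals leave out the spread between dissections. Gria2 in early over cycling cells had a ratio of 1.66 in CTX (1.44 to 1.91) and 1.16 in LGE (1.02 to 1.32), but 0.768 in MGE (0.641 to 0.920) and 0.840 in CGE (0.712 to 0.990). Gria4 in the same cells had ratios of 2.00 in MGE, 0.275 in CTX and 0.549 in CGE. Cycling cells here include those with Mapt. In cycling cells of CGE without Mapt, all AMPA receptor genes together stood at 123.9 CPM. This was below the 149.1 CPM of Gria2 in early cells, so the CGE direction for Gria2 turned without Mapt. The same values in MGE, 71.4 and 54.9 CPM, do not give the direction for Gria2. The part of Mapt in the ratios with cycling cells was not tested.

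Gria3 in cycling over high-Nestin cells had a ratio of 13.5 in CTX (4.88 to 42.9), 0.175 in LGE (0.0442 to 0.510) and 0.0941 in MGE (0.0249 to 0.253), on 4 to 62 UMIs. Grik2 in cycling over high-Nestin cells had a ratio of 0.612 in LGE and 2.14 in MGE. In early over cycling cells its ratio was 0.401 in LGE and 1.47 in MGE, and in late over early cells 0.706 in CTX and 4.37 in LGE.

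Gria1 turned with the region between lineages. The ratio of Lhx6 to Ebf1 cells among high-Dcx cells was 21.1 in LGE (14.4 to 32.1) and 3.57 in CGE (2.37 to 5.57), but 0.142 in MGE (0.0858 to 0.244). The ratio of Lhx6 to Nr2f2 cells was 3.70 in CGE (3.07 to 4.45) and 0.394 in MGE (0.194 to 0.904). In MGE 41.3% of Lhx6 cells and 89.6% of Ebf1 cells were late cells, and the part of this was not tested.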

How the results depend on the processing

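No paired analysis was possible because each region had 1 library, and the library itself was the block. Of the 6 subunits higher in late than in early cells, 3 were called with no library block, and leaving out each library gave 5 to 6. Those higher in cycling than in high-Nestin cells numbered 1 without Mapt in cycling cells (chosen after seeing the data), 2 under the gates of the study and 4 to 6 without 1 library, and those lower 1 under the gates of the study and 0 to 1 without 1 library. Under those gates Gria1, Grin1 and Grik5 changed sign, to -2.48, -0.45 and -0.019, and none was called (adjusted p = 0.057, 0.83 and 0.93, edgeR quasi-likelihood). Unlike the main steps, those gates set no upper limit on Dcx in high-Nestin cells. The 1 subunit lower in early than in cycling cells became 0 with no library block, at 3000 UMIs, with Dcx above 1.0, with the late step at Mapt above 1.0 and without Mapt in cycling cells, where 2 were higher and Gria1 stood at 2.47, and 0 to 1 without 1 library.

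With no filter on low counts, 2 subunits were higher in Ebf1, 4 higher and 3 lower in Lhx6, 5 lower in Neurod6 and 1 higher in Nr2f2 cells. The share of all genes called was taken for the main fit only. Counts under other settings therefore have no such share beside them and are not read as a result about the subunits. No library block gave 1 lower in Neurod6 and 1 higher in Nr2f2 cells. In Lhx6 cells 1 was higher with no doublet removal or no upper gene limit, 0 at 2 or more UMIs of the lineage gene, and 0 was lower with Dcx above 1.0. Without 1 library the counts were 0 to 4 higher and 0 to 1 lower (Lhx6), 0 to 1 each way (Ebf1), 0 to 3 lower (Neurod6) and 0 to 1 higher (Nr2f2), and the Gria3 log2 fold change, Ebf1 minus others, ranged from -0.46 (without LGE) to 2.70 (without CTX). Onset at 25% gave 14, 14, 0 and 11 pairs in high-Nestin, cycling, early and late cells. Early onsets numbered 5 at 3000 UMIs, and without Mapt in cycling cells 4 were cycling and 5 early. Sums thinned to 3000 UMIs could not be fitted for lineages, since a CTX sum fell under 20 cells. Where it was not the fewer samples, the cause was not tested. Grik1 was below the filter on low counts between steps.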

Other observations

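The genes whose levels were most like those of a subunit over the 16 sums of cells (Pearson's r of log2(CPM + 1), among 5524 genes with at least 50 CPM in a sum) are given as a description. The sums share libraries and differ in maturation, so many genes of young neurons are alike in this measure. Grik3 was most like Gad1 (0.966), which encodes an enzyme of GABA synthesis, Dlx5 (0.965), a transcription factor of ventral forebrain neurons, and Gm14204 (0.964). Gria4 was most like Pde4dip (0.970), Maf (0.952), a transcription factor of MGE interneurons, and Erbb4 (0.949), a neuregulin receptor of migrating interneurons. Gria1 was most like Eef1a2 (0.965), Bex2 (0.952) and Sv2a (0.949), the last a synaptic vesicle protein.

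Gria2 was most like Tspan5 (0.933), Cadm3 (0.933) and Chl1 (0.926). Gria3 was most like Cdh13 (0.862), Gas7 (0.843) and Eri3 (0.841). Grin2b was most like Cd200 (0.914), Cltb (0.905) and Syt16 (0.898), and Grin1 like Tubb2a (0.940), Tanc2 (0.937) and Trim32 (0.929). Grik5 was most like Malat1 (0.959), Tanc2 (0.959) and Lmtk3 (0.954). The likenesses of Grik1 (Fam69a 0.885, Atp2b1 0.878 and Macrod2 0.867) and Grik2 (Epha5 0.828, Kat6b 0.811 and Pigyl 0.808) were lower than those of Gria1, Gria4 and Grik3.

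Late cells of CGE with both Neurod6 and Nr2f2 (67 cells) held 1896 CPM of cortical excitatory genes and 202 CPM of GABAergic genes. Against late Nr2f2 cells of the same library without the other lineage genes, Grik3 stood at 5.56 against 81.9 CPM, a ratio of 0.0678 (0.0139 to 0.199) on 3 and 484 UMIs. Gria1 stood at 9.26 against 56.3 CPM, a ratio of 0.164 (0.0530 to 0.387), and Gria3 at 25.9 against 11.5 CPM, a ratio of 2.25 (1.17 to 4.05). These ratios compare cells within 1 library, and the cell class was set apart after seeing the data.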
